A study of Mus musculus with 8 samples.

Results

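The adenines called as N6-methylated in the short DNA of Alkbh1 knockout (KO) mouse embryonic stem cells were compared with those called in the short DNA of wild-type (WT) cells. All called sites of both lists were taken, 3370 in KO and 7142 in WT, which together are 10512 of the 17418 sites in the 4 lists of the study. Both groups were TT2 ES cells of a C57BL6 x CBA background at passage 5 to 10, grown without feeder cells. Chromatin was recovered by native immunoprecipitation with a customized antibody to H2A.X, and its DNA was divided into a short and a long portion before single-molecule real-time (SMRT) sequencing. The groups differ by genotype alone in the labels, which give neither the design of the Alkbh1 allele nor whether the KO line is 1 clone. Each group had 2 replicates, and the labels point both to the same list, so each group has 1 pooled list, there is no replicate check and no test was made. Intervals below are 95% intervals that cover counting error only, and since called sites lie in groups they are too narrow. The identity of the cells could not be checked, because a list of called bases holds no expression markers. Alkbh1 itself (chr12:87428077-87443839, GRCm38) held 0 sites in either list, also within 5000 bases of the gene, so the lists do not check the genotype.

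N6-methyladenine is a DNA base that carries a methyl group on the amino group of adenine. ALKBH1 is a dioxygenase of the AlkB family, for which removal of this methyl group from DNA has been described. H2A.X is a histone H2A variant that is phosphorylated around DNA breaks. In SMRT sequencing a modified base slows the polymerase, and the inter-pulse duration (IPD) ratio is the observed pause divided by the pause predicted for the unmodified base.

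The called bases are shown first, because they are the data. Each line gives a name, the position in mm10 with its strand, and the 41-base context from the deposited list, read 5′ to 3′ on the strand of the call, with the called adenine in capitals. The first 4 are bases called in both lists, 3 of them in major satellite-like repeats and 1 outside, in Chl1.
Satellite-like, chr14:19417726, minus strand: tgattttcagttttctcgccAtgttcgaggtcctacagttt
Satellite-like, chr2:98667070, plus strand: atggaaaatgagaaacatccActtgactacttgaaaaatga
Satellite-like, chr9:35305292, plus strand: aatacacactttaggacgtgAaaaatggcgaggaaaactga
Chl1, chr6:103649294, plus strand: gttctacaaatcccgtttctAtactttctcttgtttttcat
The next 4 are a KO group on chromosome 16, in which the called adenine is followed by guanine at each site. It is not among the 5 largest KO groups and is not typical of them. KO groups of 4 or more sites outside satellite-like contexts held 9 sites with guanine next among 43, and 4 of the 9 are these.
KO, chr16:28087329, plus strand: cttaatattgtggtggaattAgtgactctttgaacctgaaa
KO, chr16:28087361, minus strand: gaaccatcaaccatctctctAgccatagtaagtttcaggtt
KO, chr16:28087366, plus strand: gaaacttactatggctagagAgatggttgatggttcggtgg
KO, chr16:28087400, plus strand: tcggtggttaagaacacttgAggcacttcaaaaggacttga
The last 3 are from a WT group of 7 sites in Arntl, an A/T-rich stretch in which the calls fall on neighbouring adenines.
WT, chr7:113209249, plus strand: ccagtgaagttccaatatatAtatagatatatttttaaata
WT, chr7:113209257, plus strand: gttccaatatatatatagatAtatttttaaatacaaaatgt
WT, chr7:113209263, minus strand: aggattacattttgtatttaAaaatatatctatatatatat

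The KO list held fewer sites than the WT list, and how much fewer depended on the coverage of the called base. Over all sites the ratio of KO to WT was 0.472 (0.453 to 0.492, exact binomial interval). At coverage 6 to 7, the lowest in the lists, there were 728 KO and 874 WT sites, a ratio of 0.833 (0.754 to 0.920). At coverage 12 to 14 there were 506 and 1081 sites, a ratio of 0.468 (0.420 to 0.521). At coverage 25 to 49 there were 242 and 862 sites, a ratio of 0.281 (0.242 to 0.324). The ratio was thus lower in each bin than in the one before, up to coverage 49. At coverage of 50 or more it was 0.561 (0.480 to 0.654), and there 98.9% of the KO and 93.2% of the WT sites were satellite-like. Sites with coverage of 10 or less made up 43.1% of the KO list and 30.5% of the WT list. The median coverage of a called site was 12 in KO and 14 in WT. The lists give depth at called bases only, so fewer modified adenines and fewer adenines read deeply enough to be called cannot be told apart.

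**Figure D1:**
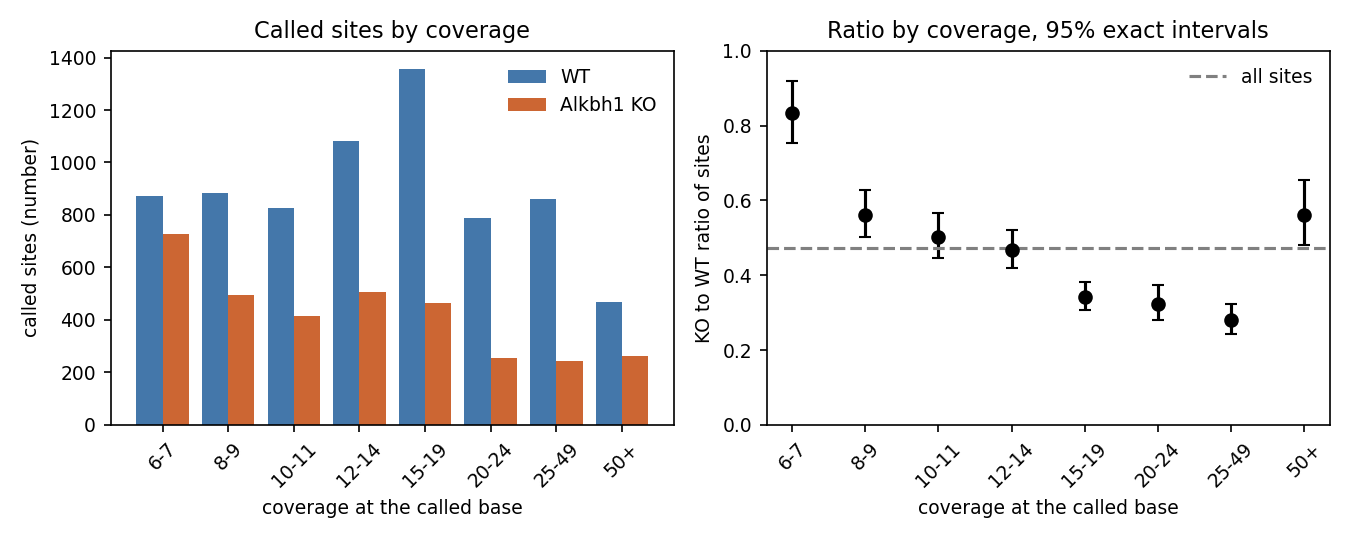
Called sites per bin of coverage in WT (blue) and Alkbh1 KO (orange) on the left, and the KO to WT ratio of the same counts with 95% exact intervals on the right, where the dashed line is the ratio over all sites (0.472). The ratio is highest at coverage 6 to 7 (0.833) and lowest at 25 to 49 (0.281).

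The chromosomes held KO and WT sites in similar proportion. The ratio of KO to WT sites ranged from 0.337 on chromosome 3 to 0.585 on chromosome 17. Chromosome 3, with 125 KO and 371 WT sites, was the 1 chromosome of 21 (4.76%) whose interval (0.273 to 0.414) excluded the ratio over all sites. Chromosome X held 77 KO and 165 WT sites, a ratio of 0.467 (0.351 to 0.615). Chromosome Y held 37 and 71, a ratio of 0.521 (0.340 to 0.786), so both sex chromosomes lay near the autosomes. Sites on the plus strand were 48.0% of the KO list and 48.4% of the WT list.

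Guanine followed the called adenine more often in KO, with the same direction in each bin of coverage. Its share was 27.6% in KO and 21.1% in WT over all sites, and it was higher in KO in 8 of 8 bins of coverage, by 2.03 to 13.6 percentage points. At coverage 6 to 7 the share was 28.7% in KO (25.4 to 32.1, Clopper-Pearson) and 23.5% in WT (20.7 to 26.4). At coverage 20 to 24 it was 32.5% (26.8 to 38.7) and 18.9% (16.2 to 21.8). The bin of 50 or more, mostly satellite-like, gave the smallest difference, 28.9% (23.5 to 34.8) against 26.9% (22.9 to 31.1), and the intervals of KO and WT overlapped there and in 4 of the other bins, 5 of 8 in all. Outside satellite-like contexts the shares were 27.7% and 20.9%, a difference of 6.84 points (4.98 to 8.73, Newcombe). Within them they were 26.8% and 24.4%, a difference of 2.47 points whose interval (-3.20 to 8.31) includes 0.

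The other bases after the called adenine differed in share as well. Adenine followed in 29.6% of KO and 35.3% of WT sites, a difference of -5.66 points (-7.54 to -3.74). Thymine followed in 27.4% and 30.8%, a difference of -3.40 points (-5.23 to -1.54). Cytosine followed in 15.4% and 12.8%, a difference of 2.59 points (1.17 to 4.06). Among sites whose next base was not adenine, a restriction chosen after seeing the data, guanine followed in 39.2% of KO and 32.6% of WT sites, a difference of 6.57 points (4.19 to 8.96). The other adenines of the same contexts serve as a local background, which includes some that were called themselves and counts adenines of overlapping contexts more than once. Guanine followed 23.8% of these in KO and 22.6% in WT, so the called adenines lay 3.79 points above this background in KO, while in WT the difference from it was -1.50 points. For thymine the difference from the background was larger, 5.66 points in KO and 9.39 in WT. It was -6.28 and -2.97 points for adenine, and -3.18 and -4.92 for cytosine. Adenine followed 35.9% of the background adenines in KO and 38.2% in WT, so the background differs between the lists as well.

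Composition differed most close to the called base. Of 160 shares of a base at a position, 34 (21.2%) had an interval of the KO minus WT difference that excluded 0. They were 19 of 56 (33.9%) within 7 bases of the called adenine and 15 of 104 (14.4%) at 8 to 20 bases. After the following base, the widest differences were thymine at position 3 after the called adenine, 37.3% in KO and 32.8% in WT, and adenine at position 2, 33.5% and 37.97%. Before it, adenine at position -4 stood at 31.4% and 35.6%. Cytosine at position 6 stood at 25.6% and 22.6%. At 8 to 20 bases the mean share of adenine was 30.2% in KO and 31.0% in WT, and that of guanine 21.9% and 20.98%. Positions in 1 context are not independent of each other.

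**Figure D2:**
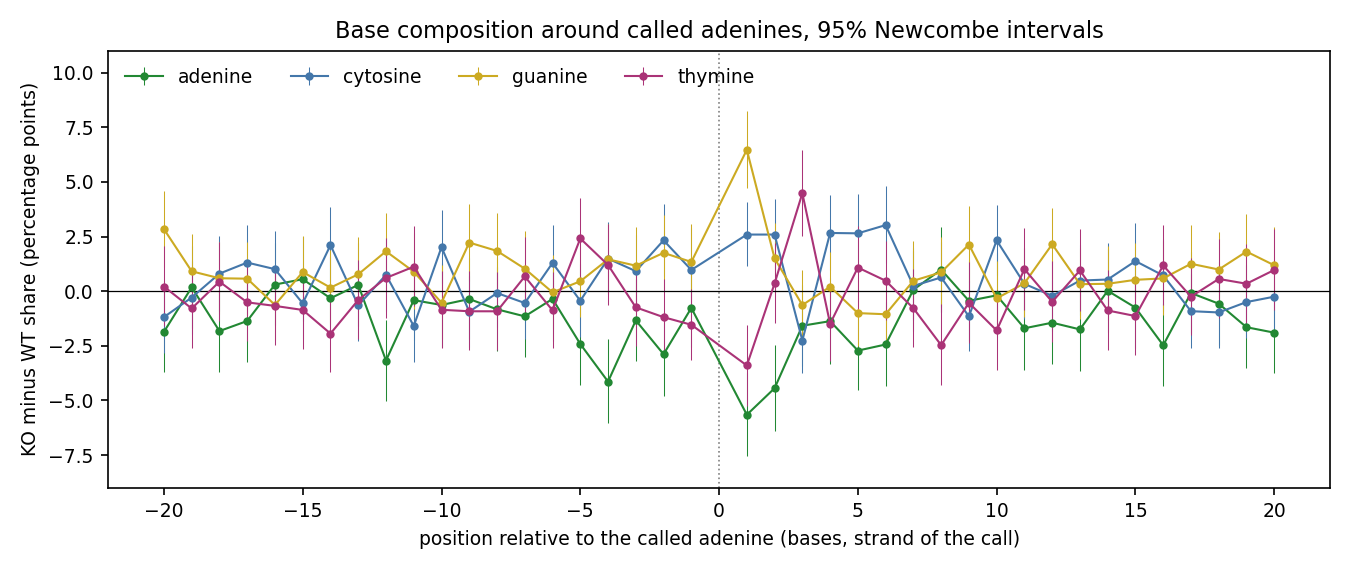
Difference in the share of each base (KO minus WT, percentage points) at positions -20 to 20 around the called adenine, with 95% Newcombe intervals; position 0 is the called adenine. Guanine at position 1 (6.47) and thymine at position 3 (4.48) are the highest points, and adenine at position 1 (-5.66) the lowest.

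Sites were also counted by contexts of 4 bases, made of the base before the called adenine, the adenine and the next 2. Of 64 such contexts, 12 (18.8%) had a higher share in KO and 4 (6.25%) a higher share in WT, with an interval that excluded 0. Of the 12, 7 had guanine after the called adenine, 4 had cytosine and 1 had adenine. GAGA made up 2.94% of KO and 1.88% of WT sites. TAGG made up 1.57% and 0.770%. GAGG made up 2.97% and 2.20%, and CAGA 2.97% and 2.23%. The 4 that were more frequent in WT held no guanine after the called adenine. AAAA was 3.65% in KO and 5.87% in WT. GAAA was 2.37% and 3.43%, TATA 1.96% and 2.83%, and CAAA 1.93% and 2.66%. Called adenines within a run of 4 or more adenines were 9.94% of KO and 13.3% of WT sites. Within runs of 10 or more they were 1.28% and 2.60%, that is 43 and 186 sites. Contexts were also slightly richer in G and C in KO, at 42.7% ± 11.1 (SD over 3370 sites) against 41.2% ± 11.5 (SD over 7142 sites). The mean was higher in KO in 8 of 8 bins of coverage, by 0.128 to 2.32 points. A CpG lay within the context of 33.4% of KO and 30.7% of WT sites, with a higher share in KO in 7 of 8 bins. How far base composition of the sequenced DNA moved with the next-base result was not tested.

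Among called sites, the median IPD ratio was nearly the same in KO and WT at equal depth. Neither list holds a call with a score under 20, so this likeness can follow from that cut. It says nothing of adenines that were not called. The median IPD ratio over all sites was 2.66 in KO and 2.56 in WT. It fell with coverage in both lists, from 3.04 in KO and 3.14 in WT at coverage 6 to 7 to 1.74 and 1.72 at 50 or more. Per bin, KO minus WT ran from -0.195 to 0.05, and with KO sites weighted to the coverage bins of WT the medians were 2.57 and 2.56, a difference of 0.01. An IPD ratio of 5 or more was seen at 8.16% of KO and 8.06% of WT sites. The modified fraction is the caller's estimate of the share of molecules with the modified base, given only at coverage of 11 or more. It was available for 1919 KO and 4962 WT sites, and it was 100% at 18.8% and 18.2% of these. By bin its median went from 99.2% in KO and 92.4% in WT at coverage 11 to 24.9% in both lists at 50 or more. Outside satellite-like contexts the medians were 79.4% (76.9 to 82.3) and 72.8% (71.7 to 74.7), and the median coverage of these 1559 and 4405 sites was 15 in KO and 17 in WT.

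**Figure D3:**
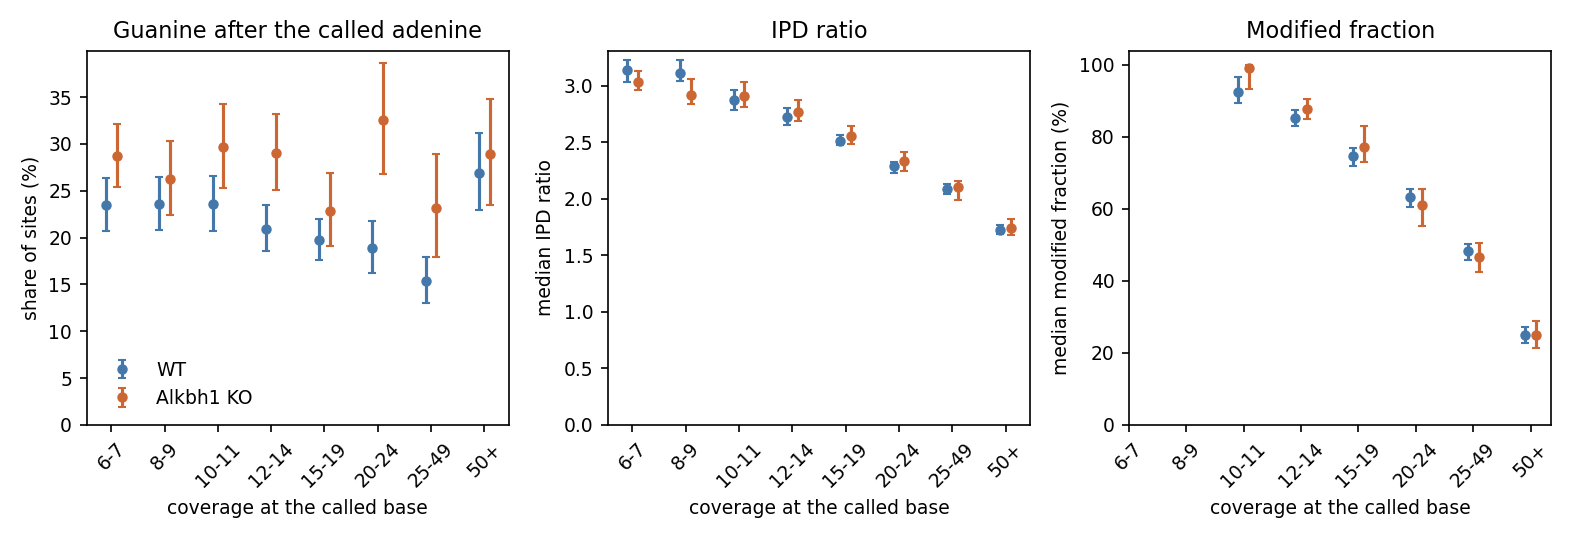
Share of sites with guanine after the called adenine, median IPD ratio and median modified fraction per bin of coverage, in WT (blue) and Alkbh1 KO (orange), with 95% intervals; the modified fraction has no value below coverage 11. Guanine is higher in KO in 8 of 8 bins, while the medians of the IPD ratio differ by -0.195 to 0.05 and those of the fraction by -2.05 to 6.85 points (KO minus WT).

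The confidence that a call is N6-methyladenine, as the deposited identification score, was modest in both lists. It reached 20 at 14.5% of KO (490) and 16.2% of WT (1157) sites. The difference of -1.66 points (-3.10 to -0.172) did not keep its sign within bins of coverage. There KO was higher in 4 and lower in 4 of 8, with differences of -6.86 to 1.89 points. Among satellite-like sites the shares were 40.5% in KO and 50.2% in WT, a difference of -9.63 points (-16.0 to -3.07). Among other sites the difference was -1.92 points (-3.29 to -0.487). These last 2 differences were not matched for coverage. Sites with guanine next reached 20 at 17.0% in KO and 21.7% in WT. Those with adenine next reached it at 15.03% and 14.5%. The intervals of the sites with guanine next came close without overlapping, from 14.63 to 19.56 in KO and from 19.61 to 23.84 in WT. The median coverage of these sites was 12 in KO and 13 in WT. Their median IPD ratios were 2.87 and 2.84.

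Bases called in both lists lay almost entirely in satellite-like DNA. Mouse major satellite is the repeat around the centromeres, which is packed as heterochromatin. Of 161 bases called in both, 160 were satellite-like. They were 43.8% of the 365 satellite-like KO sites (38.7 to 49.1) and 28.5% of the 562 in WT (24.8 to 32.4). Outside such contexts 1 base was called in both, out of 3005 KO and 6580 WT sites. Nearness did not change this. Outside satellite-like contexts 3 KO sites had a WT site within 100 bases and 27 within 1000 bases, 0.898% of them (0.593 to 1.30). By sequence, chromosome 9 held 54 of the bases called in both, the unplaced contig JH584304 held 49, chromosome 14 held 34 and chromosome 2 held 19.

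At these bases the median IPD ratios of KO and WT were close, while single bases differed more. The median IPD ratio was 1.89 in KO and 1.88 in WT, with the KO value higher at 94 and lower at 67 of 161. The median of the paired differences was 0.04 (0.01 to 0.10), against an SD of the differences of 0.469. Across the 161 bases the IPD ratios had a Pearson correlation of 0.752 and a Spearman correlation of 0.822, given as a description, since both lists share the repeat sequence at each base. At the 93 bases with coverage of 100 or more in both, Pearson's correlation was 0.902. Coverage was lower in KO at 141 of 161, with medians of 131 and 205. The identification score was lower in KO at 110 bases and higher at 49, with medians of 23 and 45.

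**Figure D4:**
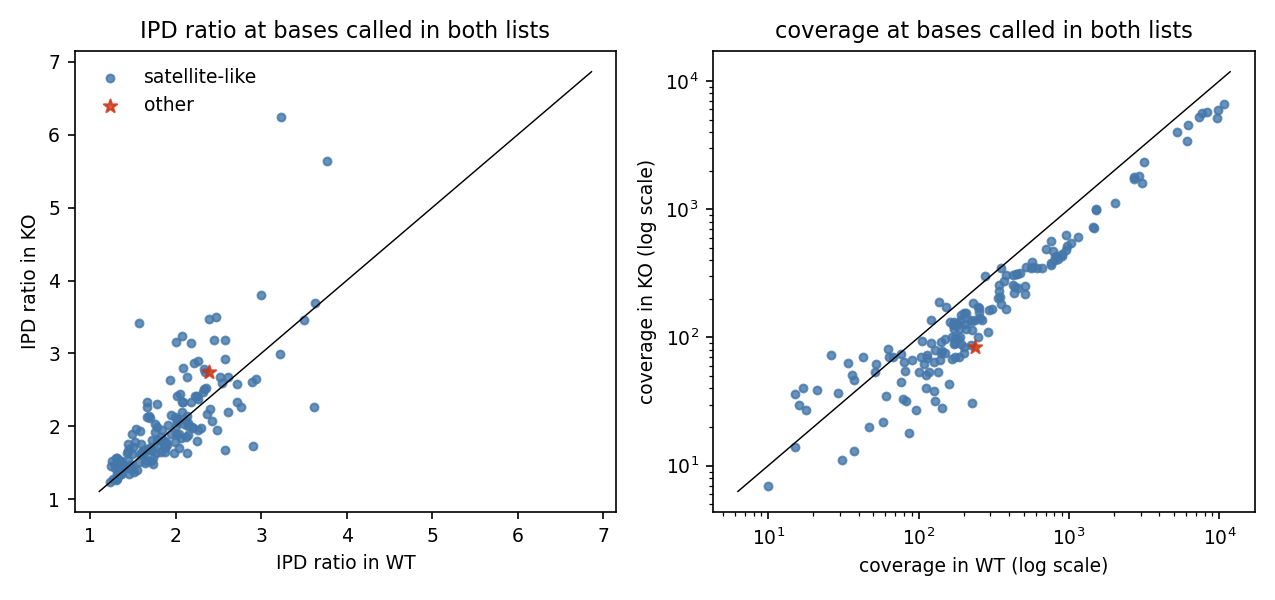
IPD ratio (left, linear axes) and coverage (right, log axes) in WT and KO at the 161 bases called in both lists; the line marks equal values, blue points are satellite-like and the red star is the base in Chl1. IPD ratios scatter around the line, while coverage lies below it at 141 of 161 bases.

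Single bases show how close the values can be. The satellite-like base at chr14:19417726 had an IPD ratio of 3.46 in KO and 3.50 in WT, a modified fraction of 85.2% and 91.8%, and coverage of 391 and 569. Its score, 315 in KO and 440 in WT, was the highest in each list. The base at chr2:98667070 had IPD ratios of 2.10 and 2.03 and fractions of 33.0% and 30.7%, at coverage 5583 and 7658. The base at chr9:35305292 had IPD ratios of 2.47 and 2.32 and fractions of 66.3% and 64.1%. The 3 bases thus had the same order of fractions in KO and WT. Other satellite-like bases lay further apart. At chr14:19417975 the fraction was 47.7% in KO and 2.2% in WT, and at chr14:19418011 it was 41.8% and 65.5%. Over the 160 shared bases with a fraction, KO was higher at 88 and lower at 72. The SD of these differences was 13.9 points. Chl1, an L1-family neural cell adhesion molecule, holds the 1 base outside satellite-like contexts, at chr6:103649294. There the IPD ratio was 2.75 in KO and 2.39 in WT, and the fraction was 63.4% (the caller's bounds, 44.5 to 80.7) and 44.8% (35.1 to 53.9), at coverage 84 and 237. The bounds overlap. This base had the highest score outside satellite-like contexts in each list, 82 in KO and 115 in WT. Its coverage was far above the medians of sites outside satellite-like contexts, 11 in KO and 13 in WT. Part of its context also occurs, on the other strand, in the context of the satellite-like base at chr2:98664964. Whether the base in Chl1 lies in a repeat that the word rule missed was not tested.

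Satellite-like sites took a larger share of the KO list than of the WT list. They were 10.8% of the KO list and 7.87% of the WT list, a difference of 2.96 points (1.77 to 4.21). Chromosome 2 held 26 in each list, a ratio of 1.00 (0.558 to 1.79). Chromosome 14 held 50 KO and 63 WT sites, a ratio of 0.794 (0.536 to 1.17). Chromosome 9 held 129 and 203, a ratio of 0.635 (0.506 to 0.796), and JH584304 held 145 and 245, a ratio of 0.592 (0.479 to 0.730). The median coverage of satellite-like sites was 84 in KO and 113 in WT, far above that of other sites in both. Their median IPD ratios were 1.89 and 1.84.

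KO sites lay near each other less often than WT sites. A site of the same list lay within 10 bases of 7.33% of KO and 10.8% of WT sites, a difference of -3.49 points (-4.61 to -2.33). Within 100 bases the shares were 23.1% and 25.9%, a difference of -2.77 points (-4.50 to -1.01). Within 1000 bases they were 32.8% and 34.6%, a difference of -1.82 points whose interval (-3.74 to 0.121) includes 0. Without satellite-like sites the shares were 5.39% and 8.86% within 10 bases, 18.7% and 21.6% within 100, and 24.7% and 29.1% within 1000. A list with fewer sites has fewer neighbours, and the part of site number was not tested beyond the alternatives in the closing section. Of pairs 1 to 2 bases apart outside satellite-like contexts, 17 of 23 in KO and 124 of 136 in WT were on the same strand. Outside satellite-like contexts, groups of 4 or more sites, each within 100 bases of the next, numbered 9 in KO (43 sites) and 43 in WT (220 sites), that is 3.00 and 6.53 per 1000 such sites. Satellite-like sites, grouped apart, formed 15 groups of that size in KO (94 sites) and 33 in WT (196 sites), the largest of 11 and 13 sites. The following values are for groups outside satellite-like contexts. Within a group the highest coverage was a median of 1.21 times the lowest in KO and 1.23 times in WT. Guanine followed the called adenine at 20.9% of grouped KO sites (10.0 to 36.0) and 9.55% of grouped WT sites (6.01 to 14.2), and for KO the interval includes the share over all its sites.

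Outside satellite-like contexts, where 1 base in all was called in both lists, none of the 5 largest groups of either list had a site of the other within 1000 bases. In WT the largest of these held 11 sites over 288 bases at chr7:100073903-100074190, outside the genes of the table, with IPD ratios of 2.03 to 3.58 and coverage of 16 to 21. Further WT groups of 9, 9 and 8 sites lay outside genes at chr3:103230686-103230823, chr8:120903590-120903774 and chr8:62871510-62871671. The fifth was that of Arntl, a clock transcription factor, with 7 sites within 15 bases at chr7:113209249-113209263, 1738 bases after a gene start. Its IPD ratios ran from 2.15 to 7.64 at coverage 15 to 16. In KO the largest of these held 6 sites at chr17:39843325-39843404, outside the genes of the table, with IPD ratios of 2.21 to 4.84 at coverage 8 to 11. A WT site lay further along, at chr17:39845183, and whether this stretch belongs to a repeat was not tested. Garre1, an effector of Rac, held 6 KO sites over 138 bases at chr7:34307002-34307139, with IPD ratios of 1.76 to 3.46 at coverage 23 to 24. Rasgef1b, a Ras guanine nucleotide exchange factor, held 5 KO sites over 92 bases at chr5:99252697-99252788, the nearest 139 bases after the gene start, at coverage 34 to 36. Groups of 5 KO sites outside genes lay at chr4:66775552-66775656 and chr15:3882724-3882834. The chromosome 16 group printed above held 4 sites with guanine next, with IPD ratios of 3.36 to 10.2 at coverage of only 6 to 9.

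**Figure D5:**
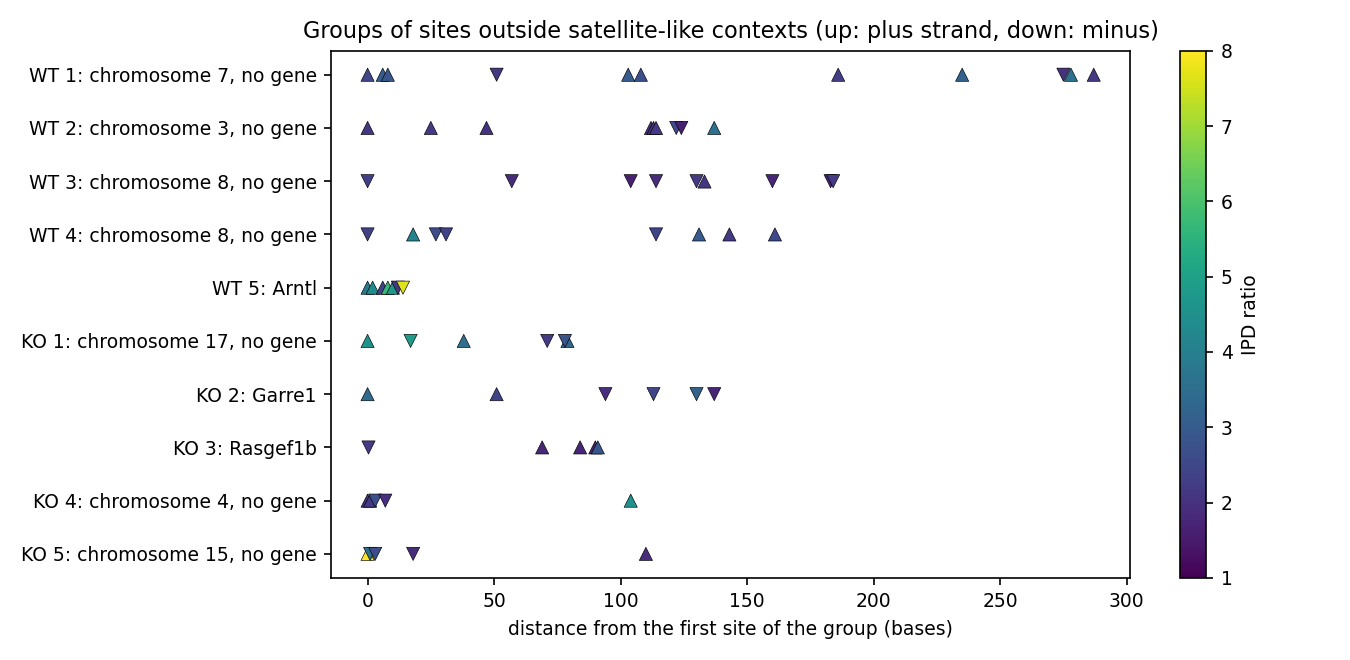
The 5 largest groups of called sites outside satellite-like contexts in WT and in KO, each on a line, by distance in bases from the first site of the group; triangles give the strand and colour the IPD ratio. The largest of these WT groups spans 288 bases with 11 sites, and the 7 sites in Arntl span 15 bases.

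Between gene start and gene end lay 45.4% of KO and 48.2% of WT sites. Of 3399 genes with a site in either list, 38 (1.12%) held at least 3 more sites in KO and 200 (5.88%) at least 3 more in WT. These counts were not scaled to the unequal lists, of 3370 KO and 7142 WT sites. A gene at the ratio over all sites can therefore count as an excess in WT. A site of both lists was found in 339 genes. Sites within 1000 bases of a gene start were 2.23% of KO and 2.31% of WT sites. Genes with an excess in KO were of 2 kinds, those with sites close together and those with sites spread over a long gene. Zfp335, a zinc finger protein, held 4 KO sites within 156 bases at a median coverage of 8 and a median IPD ratio of 4.02. Crim1, a membrane protein that binds bone morphogenetic proteins, held 4 within 69 bases at a median coverage of 28.5. Tiam2, a Rac exchange factor, held 4 within 171 bases. None of these 3 held a WT site. They were picked for an excess in KO, and of all 1259 genes with a KO site 339 held a WT site. Cacna1a, the pore subunit of a neuronal calcium channel, held 5 KO sites over 88858 bases, and Nubpl, an assembly factor of mitochondrial complex I, held 4 over 43166 bases. Nrg1, a ligand of ErbB receptors, held 6 KO sites over 483450 bases and 1 WT site. Excess in WT was likewise of both kinds. Pcnx2 held 8 WT sites within 292 bases at a median coverage of 34. Inpp4b, a phosphoinositide phosphatase, held 8 over 429782 bases, and Auts2, a regulator of neuronal development, 8 over 549850 bases. The T cell receptor alpha locus Tcra held 13 WT sites and the immunoglobulin kappa locus Igk 12 WT and 2 KO sites, each spread along a very long locus. A long gene offers more adenines, and gene length was not adjusted for.

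Gene sets of the methylation machinery, DNA damage, pluripotency and related roles were then counted. Of 178 matched genes 6.18% had a KO site and 11.2% a WT site within 5000 bases, beside 3.65% and 7.06% of all genes of the table. They held 15 KO and 31 WT sites, a ratio of 0.484 (0.243 to 0.924), beside 0.456 (0.434 to 0.479) over all genes. The AlkB family and adenine methylation genes held 1 KO and 4 WT sites in 24 genes. In Fto, an RNA demethylase, they were 1 and 1, and near Mettl16, an RNA methyltransferase, 0 and 2. The genes of cytosine methylation held 1 and 2, both WT sites in Tet1, a 5-methylcytosine dioxygenase. The DNA damage response held 5 KO and 9 WT sites in 23 genes. Of these, the kinase gene Atm held 1 and 3, Prkdc, the catalytic subunit of DNA-dependent protein kinase, 0 and 2, Brca1 1 and 1, and the end-joining factor Xrcc4 2 and 0. In Rad50, a subunit of the break-sensing MRN complex, 3 WT sites fell on consecutive adenines from chr11:53678318, with IPD ratios of 1.94, 1.74 and 2.88.

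Pluripotency genes held 4 KO and 4 WT sites in 26 genes. Tcl1, a coactivator of the kinase Akt, held 2 KO and 0 WT sites, 1 of them at chr12:105222700, 37 bases after the gene start, with an IPD ratio of 5.52 and a fraction of 97.7% at coverage 20. Lifr, the receptor of leukaemia inhibitory factor, held 1 and 2. Lineage regulators held 4 KO and 3 WT sites in 31 genes, with 3 and 1 in Runx1, a transcription factor of blood development. Imprinted genes held 0 KO and 6 WT sites in 24 genes, among them 2 in Peg10 and 2 in Rian, an interval of the ratio from 0 to 0.849 that includes the ratio over all genes. Heterochromatin genes held 0 KO and 1 WT site in 21 genes, and genes of the two-cell stage 0 and 2, both near Tcstv1. With so few sites, a difference from the ratio over all genes was not detectable for any of these sets.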

How the data were processed

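Called adenines were measured by SMRT sequencing of H2A.X-associated short DNA from WT and Alkbh1 KO TT2 ES cells. The members and gene lists were chosen with earlier results of these data known. Per the file headers and columns, the deposited lists name kinModCall as their source, and the submitters' processing notes give mm10. The version of the caller, the aligner, any filter and how replicates were pooled were not given in the sources used here. The deposited score of each call has a lowest value of 20 and no stated scale, and the deposited identification score grades each call as N6-methyladenine. IPD values were deposited by the authors as a linear ratio. The deposited coverage is an unnormalized signal, from 6 upwards. The modified fraction and its bounds are as the authors deposited them. Depth at bases not called is not in a list of calls.

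Each list was read line by line and the values taken by key. Genes came from the RefSeq table (GRCm38.p6), and gene starts from 32851 RefSeq promoter windows of 27025 genes. All 33 sites in these windows fall on an adenine of the RefSeq sequence, and 28 of 28 whole contexts equal it. A context is satellite-like if it holds 3 or more of 1588 words of 12 bases, each found in 3 or more contexts of 3 satellite windows (chromosomes 2, 9 and 14). Shares have Clopper-Pearson intervals, differences of shares Newcombe intervals, count ratios exact conditional binomial intervals, and medians order-statistic intervals, at a level of 95%. All but the Clopper-Pearson intervals were tested on simulated data, whose values were independent of each other, unlike grouped sites. Python 3.11.15, numpy 2.4.6, pandas 2.3.3, scipy 1.17.1 and statsmodels 0.14.6 were used.

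Named genes were Alkbh1, those holding the 5 largest groups of sites per list outside satellite-like contexts, the 8 with the largest excess of sites in each direction, gene-list members with 2 or more sites, and those with a base called in both lists outside satellite-like contexts. A few genes chosen in this way are left out and not reported here. Of 183 listed symbols 178 matched. Alternatives were score of 30 or more, coverage of 11 or 25 or more, identification score of 20 or more, no satellite-like contexts, placed chromosomes only, 1 site per 1000 bases and matched coverage.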

Additional observations from a re-analysis of the deposited data

How the results depend on the processing

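No paired analysis was possible because each list pools both replicates of its group, and for the same reason no replicate could be left out. Of 91 alternatives over 14 results, 54 left the value near that reported, 28 moved it and 9 turned its sign. Near means within the counting interval or, for the counts of chromosomes and genes, within a fixed ratio of the reported count. A turned sign was counted only where the reported interval excluded 0. Where a value moved the cause was not tested. The share of guanine after the called adenine stayed higher in KO in 9 of 9 alternatives (3.98 to 7.20 points), and its interval excluded 0 in 7 of the 8 that had one. The exception was an identification score of 20 or more, at 3.98 points (-0.812 to 8.93).

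With a score of 30 or more, the ratio of KO to WT sites was 0.421, the GC difference 0.838 points, the CpG difference 4.63 points and the share of KO sites also called in WT 13.7%. Under the same setting the sign turned for the median IPD ratio (-0.06), the median fraction (-0.55 points) and the share with a neighbour within 100 bases (0.392 points), 2 chromosomes excluded the overall ratio, and 3 and 24 genes held an excess in KO and in WT. With coverage of 11 or more, the ratio was 0.387, the IPD difference 0.05, the neighbour difference -0.332 points, the shared KO sites 8.34% and the difference in identification scores of 20 or more 0.101 points, a turned sign. With coverage of 25 or more, the ratio was 0.379, the GC difference 0.235 points, the CpG difference 4.70 points, the difference near gene starts 0.812 points and the shared KO sites 29.5%. There the sign turned for the IPD ratio (-0.05), the fraction (-3.40 points), the identification score share (1.53 points) and the neighbour share (1.60 points).

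With an identification score of 20 or more, the ratio was 0.424, the difference near gene starts 1.30 points, the shared KO sites 15.3%, and the fraction difference turned to -5.40 points. Without satellite-like contexts the fraction difference was 6.60 points, the shared KO sites 0.0333%, and 2 chromosomes excluded the overall ratio. On placed chromosomes only the shared KO sites were 3.41%, and with a WT site allowed within 10 bases on either strand 6.32%. At matched coverage the IPD difference was 0.01. With 1 site per 1000 bases, 6 genes held an excess in KO and 77 in WT. The lower number of sites in KO held in the 7 alternatives run for it (0.379 to 0.481). Matched coverage was not among them, so the part of depth in the lower number was not tested. The signs of the IPD, fraction, neighbour and identification differences did not hold in every alternative. The difference near gene starts, whose reported interval includes 0, was above 0 in 4 alternatives and below 0 in 5.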

Other observations

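Promoter windows ran from 250 bases before to 50 after a gene start. They held 11 KO sites of 10 genes and 22 WT sites of 20 genes, with 0 genes in both. With 10 and 20 genes out of 27025 that have a window, the 0 says nothing of overlap between the lists at promoters. The following genes were chosen after their values were seen. In KO, Pex11g, a peroxisomal membrane protein, held a site 6 bases after its start with an IPD ratio of 4.61 and a modified fraction of 100% at coverage 11. Ano2, a calcium-activated chloride channel, held a KO site with an IPD ratio of 1.96 and a fraction of 38.8% at coverage 30. In WT, Ndel1, a regulator of dynein, held 2 sites, 1 of them 18 bases after the start, with IPD ratios of 2.28 and 2.19 at coverage 22 and 26. Ints1, a subunit of the Integrator complex, also held 2 WT sites, with IPD ratios of 2.46 and 2.42 at coverage 11.

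Among sites outside satellite-like contexts, the highest scores after the base in Chl1 were 94 in WT, at chr8:4409754 with an IPD ratio of 5.04 and a fraction of 79.0% at coverage 80, and 60 in KO, at chr9:88611399 with an IPD ratio of 3.53 and a fraction of 100% at coverage 35. A WT site at chr17:39845183 had a score of 70 at coverage 73 and a fraction given as 0%. A fraction of 0% was given at 70 WT and 25 KO sites, 1.41% and 1.30% of those with a fraction.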
